A study of Mus musculus with 11 samples.

Results

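The inter-alpha-trypsin inhibitor family was read from its 6 genes on liver arrays: Ambp, which encodes the shared light chain, and the heavy-chain genes Itih1, Itih2, Itih3, Itih4 and Itih5. Members were taken by gene symbol and make up 6 of the 19938 genes measured. The family itself was chosen by measured values, with the differences of Itih3, Itih4 and Itih5 between these same groups already known, so the members' differences and their adjusted p describe these arrays and support nothing further. Each had 1 probe set of its own, so choosing the probe set with the highest mean level left nothing to choose. Livers came from male mice of 14 months in 3 groups: Mdr2-KO/IL6-KO (tumour-free tissue lacking both Mdr2 and interleukin 6, 4 arrays), Mdr2-KO (tumour-free tissue lacking Mdr2, 4 arrays) and WT (wild type, 3 arrays). The sample labels name C57BL/6 as the strain for WT and give no strain for the knockouts, and all knockout livers lack Mdr2, so loss of interleukin 6 was seen only on that background. Mdr2, encoded by Abcb4, carries phospholipid into bile. Mice without it develop chronic bile duct injury and fibrosis.

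Bikunin, cut from the Ambp precursor together with alpha-1-microglobulin, is a Kunitz-type inhibitor of serine proteases. In hepatocytes a chondroitin sulfate chain joins it to heavy chains, giving inter-alpha-inhibitor (heavy chains 1 and 2) and pre-alpha-inhibitor (heavy chain 3), which circulate in plasma. At sites of inflammation the protein TSG-6, encoded by Tnfaip6, moves heavy chains onto hyaluronan and so stabilises the matrix. The Itih4 product is a plasma protein that carries no bikunin and is cut by plasma kallikrein, and in humans and pigs it is an acute-phase protein induced by interleukin 6. ITIH5 in humans is expressed mainly outside the liver and is known as an extracellular matrix protein.

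The family split into a falling and a rising side. Itih4 fell in each knockout group against WT, by 0.49 on the log2 scale in Mdr2-KO and by 1.04 in Mdr2-KO/IL6-KO, and Itih3 fell by 0.71 in Mdr2-KO/IL6-KO. Itih5 rose 3.31-fold in Mdr2-KO and 4.32-fold in Mdr2-KO/IL6-KO. Ambp, Itih1 and Itih2 passed the test in no comparison. Values are log2 levels normalized by the authors, and calls are those of limma with the p-value, adjusted over all 19938 genes, under 0.05. Levels of different probe sets are not comparable, so each gene is compared only with itself.

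**Figure D1:**
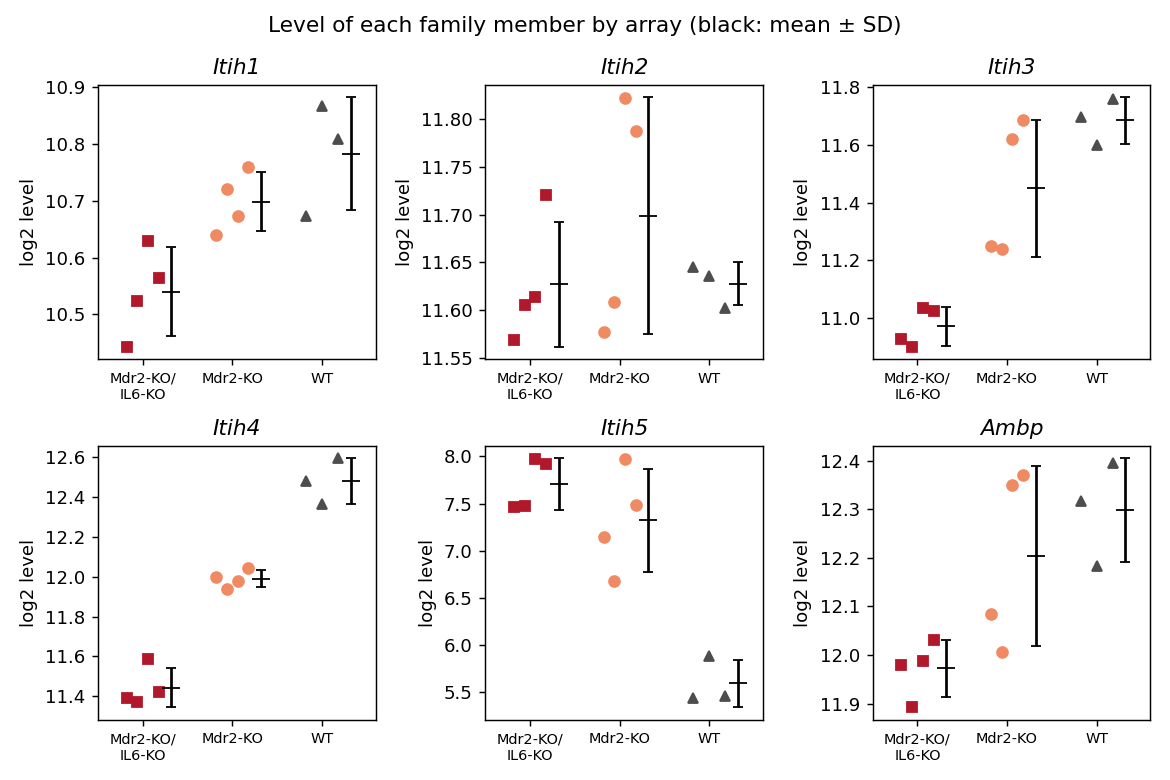
Log2 level of the 6 members on each of the 11 arrays, with a panel and a y axis for each gene; squares are Mdr2-KO/IL6-KO, circles Mdr2-KO and triangles WT, and the black bar is the mean ± SD. Itih4 stands in 3 steps that do not overlap, and Itih5 is at 6.68 or higher on every knockout array and at 5.89 or lower on every WT array.

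The arrays were alike, with Pearson r between any pair over probe sets of 0.976 to 0.990, and none were identical. Abcb4, read to check the labels, ranged from 7.83 to 8.32 in Mdr2-KO/IL6-KO and from 7.54 to 7.98 in Mdr2-KO, against 9.74 to 9.95 in WT, and was lower in both knockouts (limma adjusted p = 6.75e-06 and 2.22e-06). Il6 lay between 1.62 and 2.09 on all arrays, near the bottom of the scale, and checks nothing. The first principal component of the arrays ran within the Mdr2-KO group, from array 2 at -47.2 to array 3 at 39.5, and these arrays also had the highest and lowest array medians, 5.23 and 5.09. Results are therefore also given without that pair where a call changes. Whether the arrays are separate animals is not in the labels, so p-values measure only the spread between these samples.

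Itih4 and Itih3 lie next to each other on chromosome 14 and are the members that fell, and Itih5, on chromosome 2, is the one that rose. Their promoters are shown because the study removes interleukin 6, which acts on hepatocytes through the factor STAT3. Each window runs from 250 bases before to 50 after a transcript start given in the RefSeq promoter table, 5′ to 3′, on GRCm38.p6. That start is the annotated start of the gene for Itih4, but lies 200 bases inside the annotated gene for Itih3 and 7 bases inside for Itih5, so the sequence before the outermost Itih3 start is mostly outside the window. All 6 members matched the table. Capitals mark a STAT dimer site.
Itih4 chr14:30886226-30886525 (plus strand): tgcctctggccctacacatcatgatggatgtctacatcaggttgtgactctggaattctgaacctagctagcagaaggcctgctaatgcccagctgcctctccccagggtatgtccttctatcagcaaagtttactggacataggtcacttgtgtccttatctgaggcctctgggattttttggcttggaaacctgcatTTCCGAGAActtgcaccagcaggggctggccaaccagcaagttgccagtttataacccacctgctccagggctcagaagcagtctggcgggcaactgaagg
Itih3 chr14:30923538-30923837 (minus strand): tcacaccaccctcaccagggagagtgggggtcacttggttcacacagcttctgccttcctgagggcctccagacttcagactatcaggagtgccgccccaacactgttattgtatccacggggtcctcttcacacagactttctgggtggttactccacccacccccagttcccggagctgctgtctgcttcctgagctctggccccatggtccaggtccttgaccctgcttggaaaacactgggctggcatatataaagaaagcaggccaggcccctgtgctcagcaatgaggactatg
Itih5 chr2:10153293-10153592 (plus strand): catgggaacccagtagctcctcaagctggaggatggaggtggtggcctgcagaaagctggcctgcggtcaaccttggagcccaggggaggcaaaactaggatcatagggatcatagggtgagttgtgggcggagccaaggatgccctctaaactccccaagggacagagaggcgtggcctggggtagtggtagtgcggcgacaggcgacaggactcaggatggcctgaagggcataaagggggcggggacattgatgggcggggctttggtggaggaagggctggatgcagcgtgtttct
The letters searched on both strands were TTCNNNGAA, which reads the same on either strand, and the C/EBP-like TTGCNNAA with its reverse TTNNGCAA; the Itih4 match overlaps no C/EBP-like one. The Itih4 window holds TTCCGAGAA from base -51 to -43 relative to that start, and the windows of the 5 other members hold no match to these STAT letters. Of 32851 promoters in the table, 2726 (8.30%) hold it. The C/EBP-like letters were found in 3547 (10.8%) of all promoters and in 1 of the 6 members, Itih2, as TTGAGCAA from base -33 to -26. A match is a string of letters and says nothing about binding in these livers.

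Ambp, the light-chain gene (chromosome 4, 63143275 to 63154172, minus strand), had log2 levels of 11.98, 11.89, 11.99 and 12.03 on the Mdr2-KO/IL6-KO arrays. The Mdr2-KO arrays read 12.08, 12.01, 12.35 and 12.37, and the WT arrays 12.32, 12.18 and 12.39. The Mdr2-KO/IL6-KO arrays all lay below the WT arrays, and the Mdr2-KO group spanned both ranges, with arrays 1 and 2 low and arrays 3 and 4 high. The log2 difference of Mdr2-KO/IL6-KO from WT was -0.33 ± 0.10 (SE), with a 95% confidence interval of -0.55 to -0.10 (limma adjusted p = 0.116). Against Mdr2-KO it was -0.23 ± 0.10 (interval -0.44 to -0.023, limma adjusted p = 0.9995), and for Mdr2-KO against WT it was -0.10 ± 0.10 (interval -0.32 to 0.13, limma adjusted p = 0.878).

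Itih1 and Itih2 encode the heavy chains of inter-alpha-inhibitor. Itih1 (chromosome 14, 30929180 to 30943289, minus strand) read 10.44, 10.52, 10.63 and 10.56 in Mdr2-KO/IL6-KO livers. In Mdr2-KO livers it read 10.64, 10.72, 10.67 and 10.76, and in WT livers 10.67, 10.87 and 10.81. Every Mdr2-KO/IL6-KO array was below every other array, narrowly so for array 3, but no difference passed the test. The log2 difference from WT was -0.24 ± 0.08 (SE) in Mdr2-KO/IL6-KO (limma adjusted p = 0.148) and -0.08 ± 0.08 in Mdr2-KO (limma adjusted p = 0.858), and between the knockouts it was -0.16 ± 0.08 (limma adjusted p = 0.9995).

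Itih2 (chromosome 2, 10094591 to 10130683, minus strand) was the member with the smallest differences. It read 11.57, 11.61, 11.61 and 11.72 in Mdr2-KO/IL6-KO, 11.58, 11.61, 11.82 and 11.79 in Mdr2-KO, and 11.64, 11.64 and 11.60 in WT. All 3 groups overlapped. The 95% confidence interval of the log2 difference of Mdr2-KO/IL6-KO from WT was -0.19 to 0.19, that of Mdr2-KO from WT was -0.11 to 0.26, and that between the knockouts was -0.24 to 0.10, with limma adjusted p of 0.9997, 0.897 and 0.9995 in that order.

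Itih3, the heavy chain of pre-alpha-inhibitor (chromosome 14, 30908572 to 30923787, minus strand), read 10.93, 10.90, 11.03 and 11.02 on the Mdr2-KO/IL6-KO arrays. The Mdr2-KO arrays read 11.25, 11.24, 11.62 and 11.69, and the WT arrays 11.70, 11.60 and 11.76. All 4 Mdr2-KO/IL6-KO arrays lay below all others, while Mdr2-KO arrays 3 and 4 reached into the WT range. Itih3 fell by 0.71 on the log2 scale in Mdr2-KO/IL6-KO against WT (SE 0.12, a 1.64-fold lower level, limma adjusted p = 0.00324). Between the knockouts the log2 difference was -0.48 ± 0.11 (interval -0.71 to -0.25), the 20th lowest p of all genes, at an unadjusted p of 0.00062 and a limma adjusted p of 0.618. For Mdr2-KO against WT it was -0.24 ± 0.12 (limma adjusted p = 0.546).

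Itih4 (chromosome 14, 30886476 to 30901986, plus strand) read 11.39, 11.37, 11.59 and 11.42 in Mdr2-KO/IL6-KO, 12.00, 11.94, 11.98 and 12.04 in Mdr2-KO, and 12.48, 12.36 and 12.59 in WT. No array of a group overlapped another group, and the spread within Mdr2-KO was narrow (mean 11.99 ± 0.044, SD, n = 4). Itih4 fell by 1.04 in Mdr2-KO/IL6-KO against WT (SE 0.09, 2.05-fold lower, limma adjusted p = 2.04e-05). In Mdr2-KO it fell by 0.49 against WT (SE 0.09, 1.41-fold lower, limma adjusted p = 0.0128). That second call was lost without WT array 1 (limma adjusted p = 0.0561), without WT array 3 (limma adjusted p = 0.0683), or without Mdr2-KO arrays 2 and 3 together (limma adjusted p = 0.0762).

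Between the knockouts, the comparison that asks what loss of interleukin 6 adds, Itih4 had a log2 difference of -0.55 ± 0.08 (interval -0.72 to -0.37), with 4 of 4 Mdr2-KO/IL6-KO arrays lower. Its p was the 3rd lowest of all genes (unadjusted p = 1.11e-05), and its limma adjusted p of 0.0706 did not pass. The call was made in 4 of 23 alternatives, with limma adjusted p of 0.0207 to 0.0439, and was not made in the other 19. Leaving out single arrays gave a limma adjusted p of 0.0661 to 0.332, so none of those fits made the call. Over all alternatives the value ranged from -0.60 to -0.51.

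Itih5 (chromosome 2, 10153536 to 10256529, plus strand) read 7.46, 7.48, 7.97 and 7.91 in Mdr2-KO/IL6-KO, 7.15, 6.68, 7.97 and 7.49 in Mdr2-KO, and 5.44, 5.89 and 5.46 in WT. Both knockout groups lay above WT with no overlap, and they overlapped each other. Itih5 rose 4.32-fold in Mdr2-KO/IL6-KO against WT (log2 difference 2.11 ± 0.24 SE, limma adjusted p = 0.000347), the 7th highest difference of all genes. It rose 3.31-fold in Mdr2-KO (log2 difference 1.73 ± 0.24 SE, limma adjusted p = 0.0035), the 11th highest. Between the knockouts the difference was 0.38 ± 0.23 (interval -0.10 to 0.87, limma adjusted p = 0.9995). It was 0.17 without Mdr2-KO array 2 and 0.60 without Mdr2-KO array 3 (limma adjusted p = 0.932 and 0.654). Without Mdr2-KO arrays 2 and 3, the lowest and highest of that group, the difference of Mdr2-KO from WT was 1.72.

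**Figure D2:**
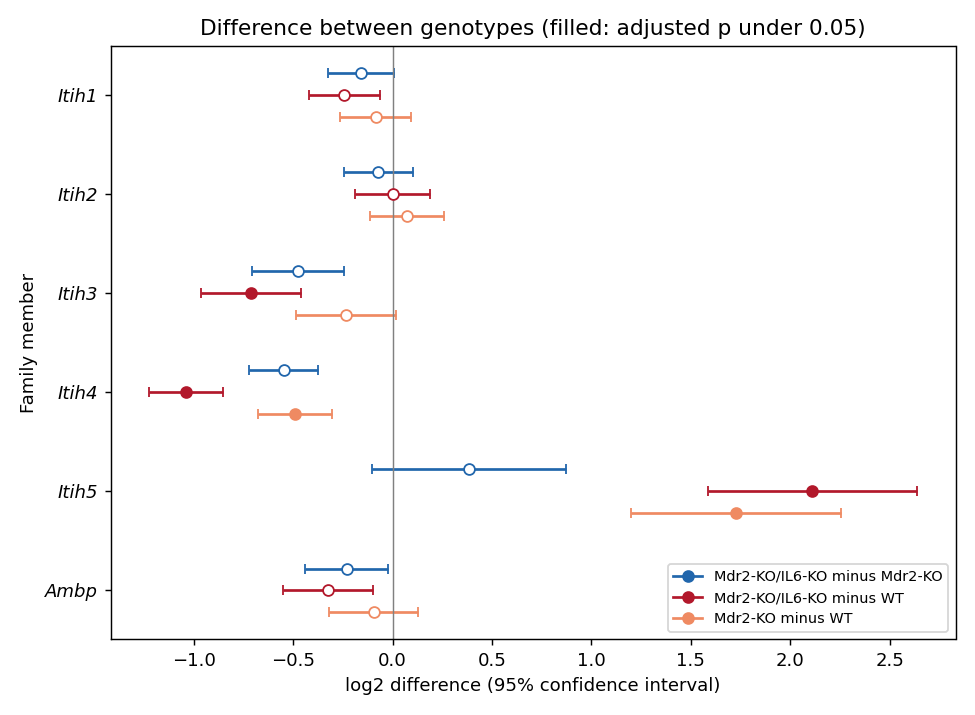
Log2 difference of each member with its 95% confidence interval from the limma fit; blue is Mdr2-KO/IL6-KO minus Mdr2-KO, red Mdr2-KO/IL6-KO minus WT and orange Mdr2-KO minus WT, and filled points passed an adjusted p under 0.05. Itih5 is the member whose intervals against WT lie far above 0, at 1.59 to 2.64 and 1.20 to 2.25, and the Itih4 intervals all lie below 0.

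Set against all genes, the family's counts were as follows, and nothing is read from them, since these comparisons chose the family. In Mdr2-KO/IL6-KO against WT 1 of 6 members was called higher (Itih5) and 2 lower (Itih3 and Itih4), where 4.19% of all genes were called, 2.91% higher and 1.28% lower. At an unadjusted p under 0.05 there were 1 higher and 4 lower (Itih1, Itih3, Itih4 and Ambp), against 15.5% of all genes, 9.4% higher and 6.1% lower. The same members had arrays without overlap, as did 16.3% of all genes, 9.85% higher and 6.44% lower.

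In Mdr2-KO against WT 1 member was called higher (Itih5) and 1 lower (Itih4), against 1.26% of all genes, 0.948% higher and 0.316% lower. The same pair was under an unadjusted p of 0.05, as were 9.79% of all genes, 5.69% higher and 4.09% lower. That pair also had arrays without overlap, against 9.13% of all genes, 5.49% higher and 3.64% lower.

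Between the knockouts limma called 0 of 6, against 0.00502% of all genes, all of it lower and 0% higher. At an unadjusted p under 0.05 there were 3 members, all lower (Itih3, Itih4 and Ambp), against 4.82% of all genes, 2.78% higher and 2.04% lower. Arrays did not overlap for 3 members, all lower (Itih1, Itih3 and Itih4), against 2.51% of all genes, 1.6% higher and 0.908% lower. The family's median log2 difference was -0.28 in Mdr2-KO/IL6-KO against WT, -0.09 in Mdr2-KO against WT and -0.19 between the knockouts, where the medians over all genes were -0.00056, -0.0056 and 0.0099.

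Within the Mdr2-KO group Itih2, Itih3, Ambp and Itih5 shared an order in which arrays 1 and 2 were lower than arrays 3 and 4, and Itih4 did not follow this order. After each array's deviation from its group mean was taken, Itih3 and Ambp had a Pearson r of 0.96 over the 11 arrays, Itih2 and Itih3 of 0.84, Itih2 and Itih5 of 0.78, and Itih3 and Itih4 of 0.48. The points share array quality and normalization, and the r is a description. Array 2 of Mdr2-KO, the lowest of its group for Itih3, Itih4, Itih5 and Ambp, is the array with the highest array median, and array 3 has the lowest. The part of this in the shared order was not tested.

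Itih3 and Itih4 were set beside other acute-phase genes of hepatocytes, whose expression changes in inflammation. Most encode plasma proteins, while Mt1 and Mt2 encode metallothioneins, which bind metals inside cells. Of 33 listed genes 30 were measured. In Mdr2-KO/IL6-KO against WT 15 of the 30 fell and 0 rose, where 1.28% of all genes were called lower and 2.91% higher. The median log2 difference of the list was -0.56 there, against -0.00056 over all genes. The listed genes called lower were Saa1, Saa2, Saa3, Saa4, Apcs, Fga, Fgb, Fgg, Fgl1, Lcn2, Serpina3n, C4b, Lbp, Mt1 and Mt2. The lowest values were those of Mt2 (-3.82), Fgl1 (-3.23) and Mt1 (-3.09). Hamp, the gene of the iron hormone hepcidin, named after its values were seen, lay far on the other side, at 2.73 in Mdr2-KO/IL6-KO against WT with no overlap of arrays (limma adjusted p = 0.0568) and at 1.87 in Mdr2-KO against WT (limma adjusted p = 0.377). The median in Mdr2-KO against WT was -0.31, with Fgl1, Serpina3n, Mt1 and Mt2 lower (13.3%, against 0.316% of all genes). Between the knockouts the median was -0.35, with Fgl1 lower (3.33%, against 0.00502% of all genes). The medians over all genes were -0.0056 in Mdr2-KO against WT and 0.0099 between the knockouts. The log2 fall of Itih4 in Mdr2-KO/IL6-KO against WT, 1.04, was larger than that of the fibrinogen chain Fgb, which fell by 0.56, and smaller than that of the serum amyloid gene Saa1, which fell by 3.02.

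**Figure D3:**
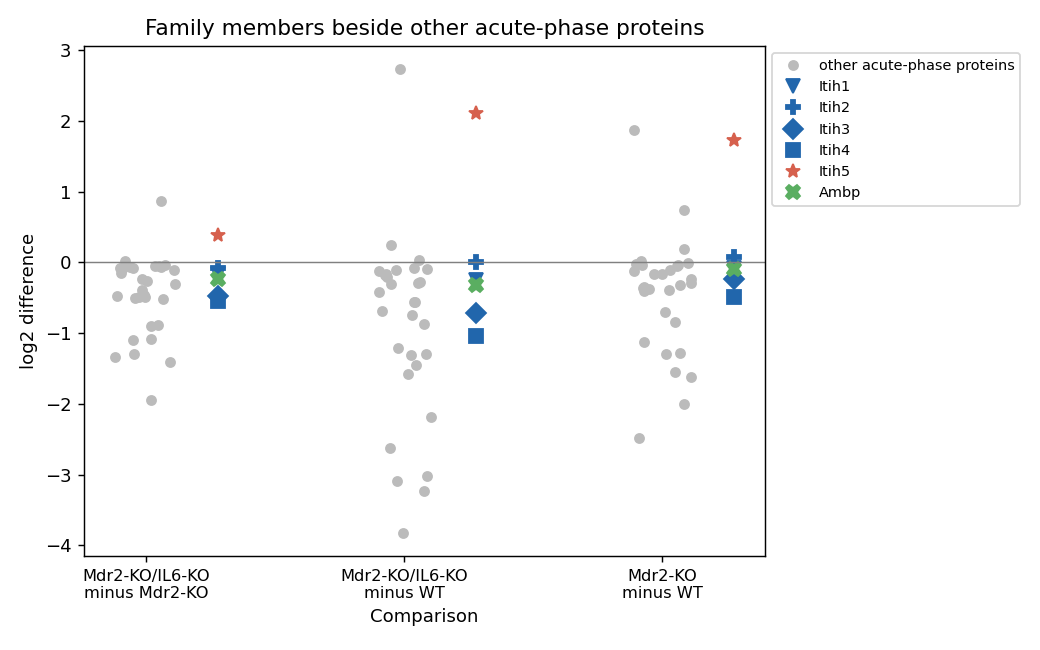
Log2 difference of the 30 other acute-phase genes (grey points) and of the 6 family members (coloured symbols) in each comparison. Most grey points lie below 0 and reach -3.82 in Mdr2-KO/IL6-KO against WT. Itih4 and Itih3 lie within their range. Itih5 lies above 0 in all 3 comparisons but below the highest grey point. That point is at 2.73 in Mdr2-KO/IL6-KO against WT, 1.87 in Mdr2-KO against WT and 0.86 between the knockouts.

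The mean level of the acute-phase list ran from 9.89 to 10.01 on the Mdr2-KO/IL6-KO arrays, from 10.17 to 10.79 on the Mdr2-KO arrays and from 10.49 to 11.05 on the WT arrays. Mdr2-KO array 3 (10.79) and array 4 (10.50) thus lay above WT array 2 (10.49). Itih3 was likewise higher on these Mdr2-KO arrays than on WT array 2, whereas Itih4 was not. Markers of hepatocytes had list means of 12.45 to 12.56 in Mdr2-KO/IL6-KO, 12.44 to 12.61 in Mdr2-KO and 12.61 to 12.64 in WT. Of 7 measured, Fgb was called, lower in Mdr2-KO/IL6-KO against WT (14.3%, against 1.28% of all genes). The median log2 difference there was -0.16, with 5 genes below 0 and 2 above it. Alb, Apoa1, Ttr and Fgb are also on the acute-phase list, so the lists are not separate readings. In bulk tissue fewer cells of a type and less RNA per cell cannot be told apart, and the part of hepatocyte content in the values of Itih3 and Itih4 was not tested.

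From the 9969 genes above the median level, those with placeholder names (Gm, Rik, LOC or accession-like) were left out. The genes whose levels were most like each member's were then ranked by Pearson r over the 11 arrays. For Itih4 they were Fgb (r = 0.987), Fgl1, a hepatocyte-secreted fibrinogen-like protein (0.985), and the complement gene C4b (0.976). For Itih3 they were the amino acid transporter subunit Slc3a1 (0.968), Fgl1 (0.964) and Ambp (0.955), and for Ambp they were Orm2 (0.971), Itih3 (0.955) and Orm1 (0.950), the Orm genes encoding orosomucoids. Differences between the genotypes enter these values. After subtracting group means r was 0.78, 0.67 and 0.56 for Itih4 in the same order, 0.90, 0.91 and 0.96 for Itih3, and 0.96 for each of the 3 with Ambp. For Itih5 the most alike were Mtmr11 (0.986), Nipal3 (0.976) and Cib3 (0.974), with 0.93, 0.81 and 0.83 after subtracting group means. Mtmr11, a myotubularin-related gene, had a log2 difference from WT of 1.54 in Mdr2-KO/IL6-KO and 1.30 in Mdr2-KO.

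Some markers of stellate cells, fibroblasts and bile duct cells rose in both knockouts against WT, as Itih5 did. Of 13 stellate cell, fibroblast and myofibroblast markers 8 (61.5%) rose in Mdr2-KO/IL6-KO and 7 (53.8%) in Mdr2-KO against WT. Of all genes 2.91% and 0.948% were called higher in these comparisons. The matrix protein gene Dpt was 1.76 and 1.61 higher and Col1a1 1.24 and 1.02 higher on the log2 scale in these comparisons. The list means were 7.38 to 7.69 in Mdr2-KO/IL6-KO, 7.34 to 7.52 in Mdr2-KO and 6.64 to 6.96 in WT. Of 6 measured bile duct cell markers 4 (66.7%) rose in each knockout (Krt19, Epcam, Cd24a and Tspan8), against the same shares of all genes. The bile duct list means were 6.48 to 6.96 in Mdr2-KO/IL6-KO, 6.52 to 6.88 in Mdr2-KO and 5.43 to 5.65 in WT. The log2 scale has no true 0, so no marker can be called absent from it. After group means were subtracted, Itih5 had an r of 0.58 with Cd24a, 0.14 with Col3a1 and -0.15 with Lum over 11 arrays. Cd24a had a higher r of this kind with Ambp (0.92) and with Itih3 (0.92), so the value is not particular to Itih5. The part of these cells in the Itih5 result was not tested.

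**Figure D4:**
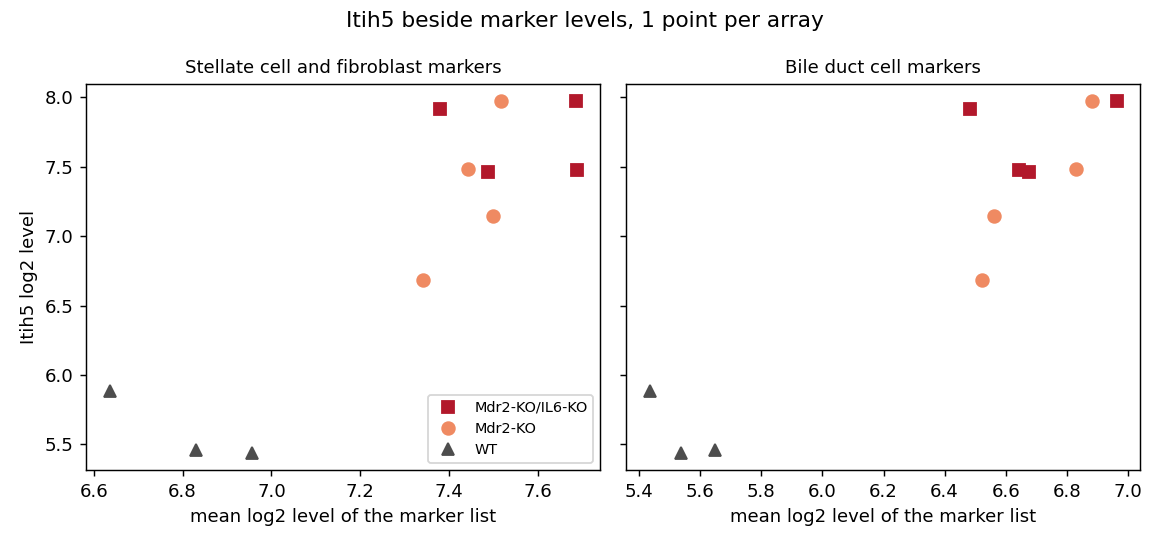
Log2 level of Itih5 (y axis) against the mean log2 level of the 13 stellate cell and fibroblast markers (left) and the 6 bile duct cell markers (right), 1 point per array. The 8 knockout arrays lie up and to the right of the 3 WT arrays in both panels. Mdr2-KO/IL6-KO array 4 joins a high Itih5 level (7.91) with the lowest bile duct list mean of the knockouts (6.48). Array 3 of that group joins its highest Itih5 level (7.97) with its highest bile duct list mean (6.96). Within Mdr2-KO, Itih5 and the bile duct list mean put the arrays in the same order. The acute-phase list mean and the first principal component also gave this order, and the array medians gave it in reverse. The order is thus not particular to bile duct markers.

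Among the other cell lists, Krt8, which bile duct cells also express, rose as 1 of 5 mesothelial genes in Mdr2-KO/IL6-KO against WT. Lyve1 rose there as 1 of 6 endothelial markers, where 2.91% of all genes were called higher. Limma called 0 of 5 macrophage, 0 of 5 lymphocyte and 0 of 4 adipose markers in any comparison. At an unadjusted p under 0.05 there were 3 lymphocyte markers lower in Mdr2-KO/IL6-KO against WT and otherwise 0. Of all genes 6.1% were lower at that threshold there.

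Genes of the family's partners were counted next. Of 22 measured genes of hyaluronan binding and turnover 2 rose in Mdr2-KO/IL6-KO against WT, the endothelial hyaluronan receptor Lyve1 (1.58-fold, limma adjusted p = 0.0357) and Stab1, a scavenger receptor (1.29-fold, limma adjusted p = 0.0419). That is 9.09% of the list, where 2.91% of all genes were called higher. In Mdr2-KO against WT and between the knockouts limma called 0 of the 22, with 3 and 1 at an unadjusted p under 0.05. Of all genes 9.79% and 4.82% were under that unadjusted threshold in these comparisons. Tnfaip6, named here for its role in heavy-chain transfer after its values were seen, averaged 3.46 ± 0.16 in Mdr2-KO/IL6-KO, 3.52 ± 0.25 in Mdr2-KO and 3.35 ± 0.14 in WT (SD, n = 4, 4 and 3), and was called in no comparison. Of 19 genes that build the chondroitin sulfate chain 2 (10.5%) rose in Mdr2-KO/IL6-KO against WT, beside the same 2.91% of all genes. They were Ugdh, which makes the UDP-glucuronate precursor (1.49-fold, limma adjusted p = 0.00378), and Pxylp1, a phosphatase of the linker xylose (1.43-fold, limma adjusted p = 0.0466). In the other comparisons limma called 0 of the 19, with 3 (Mdr2-KO against WT) and 1 (between the knockouts) at an unadjusted p under 0.05.

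Of 12 other Kunitz-domain genes 3 (25.0%) rose in Mdr2-KO/IL6-KO against WT, where 2.91% of all genes were called higher. The membrane protease inhibitor Spint2 rose 1.49-fold there (limma adjusted p = 0.00171) and 1.35-fold in Mdr2-KO (limma adjusted p = 0.0204), and the precursor genes App and Aplp2 rose 1.36-fold and 1.29-fold in Mdr2-KO/IL6-KO (limma adjusted p = 0.0185 and 0.0166). In Mdr2-KO against WT limma called 1 of the 12 (8.33%), against 0.948% of all genes called higher, with 5 at an unadjusted p under 0.05. Between the knockouts limma called 0 of the 12, with 1 at an unadjusted p under 0.05. Of all genes 9.79% and 4.82% were under that unadjusted threshold in these 2 comparisons. In Mdr2-KO/IL6-KO against WT 8 of the 12 were above 0 and 4 below it, as Ambp was; among these Tfpi2, named after its values were seen, was at -0.28 (limma adjusted p = 0.25). Of the relatives listed Vwa5a was measured, with a log2 difference of -0.05 in Mdr2-KO/IL6-KO and 0.01 in Mdr2-KO against WT.

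On the chromosome, Itih4 and Itih3 point towards each other with 6585 bases between them, Itih1 follows after 5392 bases, and Itih2 and Itih5 lie back to back with 22852 bases between their starts. Of 60 measured genes within 10 places of a member 0 were called by limma in Mdr2-KO against WT and 0 between the knockouts. At an unadjusted p under 0.05 there were 9 and 3, against 9.79% and 4.82% of all genes. In Mdr2-KO/IL6-KO against WT 4 were higher and 1 lower, where 2.91% of all genes were called higher and 1.28% lower. These lie around the Itih cluster of chromosome 14, and nothing is read from so few genes. Il17rb had a log2 difference of 1.11, Chdh of 0.44, Nt5dc2 of 0.41 and Stab1 of 0.36, and Gnl3 fell by 0.66. Near Ambp, Orm2 and Orm1 had log2 differences of -1.45 (limma adjusted p = 0.0857) and -0.68 (limma adjusted p = 0.0961) in Mdr2-KO/IL6-KO against WT. Orm3, which lies between them, was at -0.31 (limma adjusted p = 0.853). The Orm genes are near-identical copies and their probe sets may share signal.

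**Figure D5:**
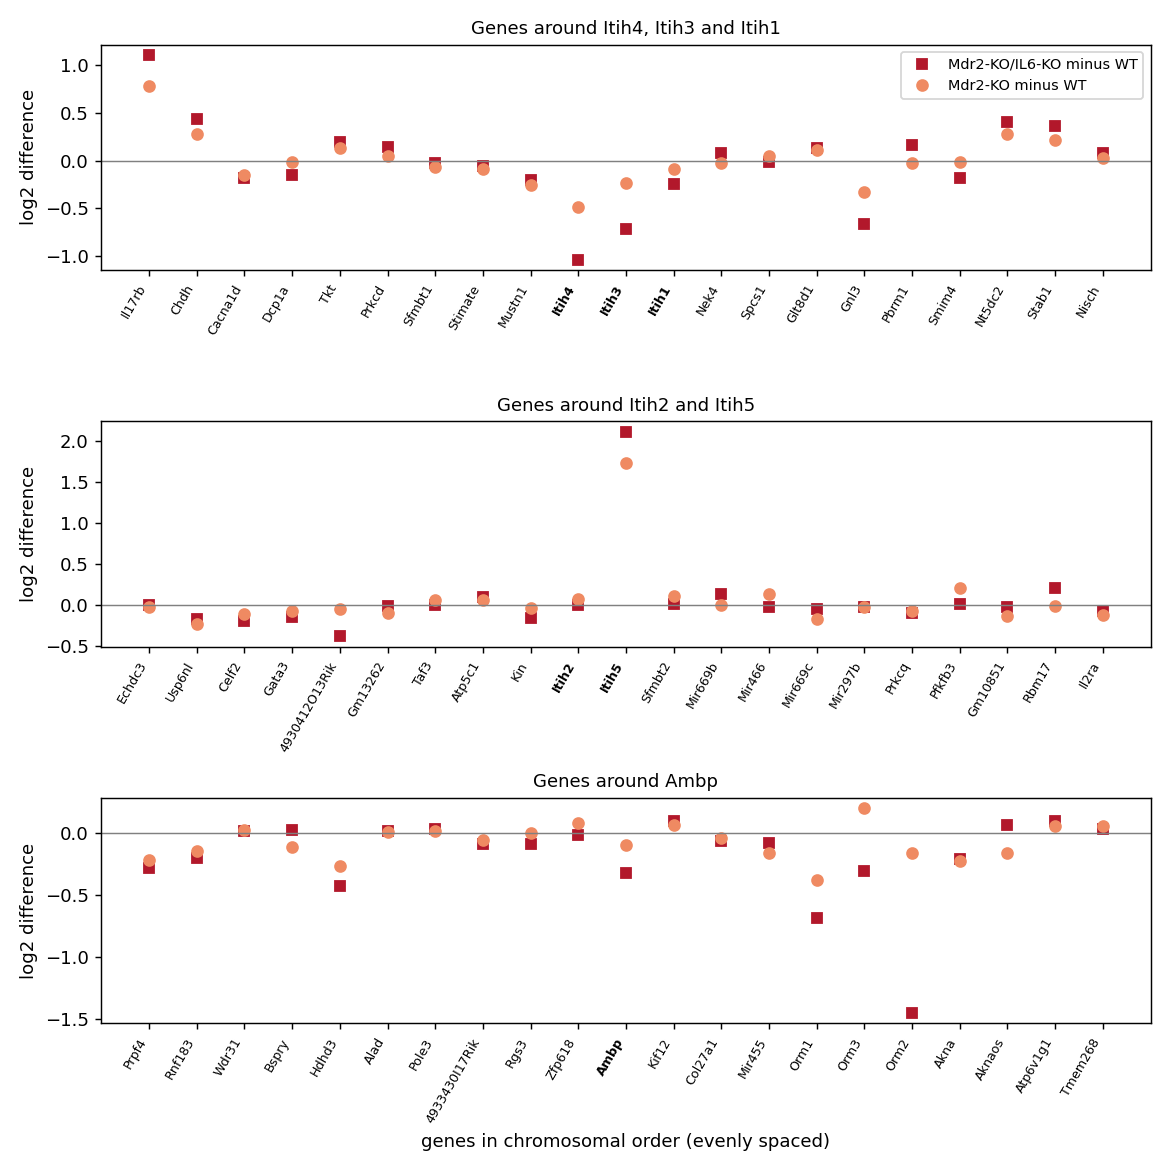
Log2 difference from WT of the genes around Itih4, Itih3 and Itih1 (top), Itih2 and Itih5 (middle) and Ambp (bottom), in chromosomal order with even spacing; red squares are Mdr2-KO/IL6-KO and orange circles Mdr2-KO. Itih5 stands at 2.11 and 1.73 while its nearest neighbour Itih2 stands at -0.00037 and 0.07.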

How the data were processed

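Liver RNA of 11 samples was measured on Affymetrix arrays, 1 per sample. The authors deposited 1 table of log2 levels for 35557 probe sets, for which the submitters' processing notes name RMA and Partek, while their settings are not given in the sources used here. No further normalization was applied, and RMA can compress fold changes. Groups come from the genotype labels. Probe sets with 1 gene symbol (21789; 1621 had several and 12147 none) were named through the platform annotation, with symbols updated by Entrez ID against RefSeq GRCm38.p6, giving 19938 genes, of which 19856 matched. Differences were tested with limma 3.58.1 in R 4.3.3, in 1 model of all 11 arrays with 3 contrasts, eBayes moderation, two-sided tests and Benjamini-Hochberg adjustment over all genes; the model was tested on simulated data. The number of arrays limits the precision. Lists are described by counts and medians, without a list test. Members, lists, motifs and alternatives were chosen with earlier results of these data known. Genes named are the 6 members, list members and neighbours called in any comparison, and for each member the 3 most alike genes. No labels give a batch or pairing. Alternatives changed probe set summary, filter, normalization, moderation, weights, samples and threshold. A fit without Mdr2-KO arrays 2 and 3 was added after seeing the data.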

Additional observations from a re-analysis of the deposited data

How the results depend on the processing

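Itih3, Itih4 and Itih5 kept their direction and call in Mdr2-KO/IL6-KO against WT under all 23 alternatives. Their log2 differences were -0.76 to -0.68, -1.10 to -0.98 and 2.02 to 2.26. Many of these alternatives could not change the difference itself, only the adjusted p or the threshold. They are the probe set summaries, the filter, the moderation settings, the 0.01 threshold, the 2 groups alone and fits without Mdr2-KO arrays. Leaving out single arrays gave -0.55 to -0.43 for Itih4 and 1.51 to 1.94 for Itih5 in Mdr2-KO against WT, -0.60 to -0.52 for Itih4 and 0.17 to 0.60 for Itih5 between the knockouts, and -0.03 to 0.02 (-0.0315 to 0.019) for Itih2 in Mdr2-KO/IL6-KO against WT. In Mdr2-KO against WT, Itih4 at -0.49 missed an adjusted p under 0.01, and without Mdr2-KO arrays 2 and 3 it was -0.46; Itih5 at 1.73 was not called without moderation (adjusted p = 0.077). Between the knockouts Itih4 was called among genes above the median level (-0.55), with cyclic loess (-0.55), with trend and robust moderation (-0.55) and with array weights (-0.57). The other 19 alternatives did not call Itih4 there. In Mdr2-KO/IL6-KO against WT, Itih2 changed sign, from near 0, with quantile normalization (0.035) and cyclic loess (0.0036), and Ambp was called with array weights (-0.36). Counts of called genes in Mdr2-KO against WT were 252, and 43 without moderation, 410 with array weights, 138 with only the 2 groups compared, 94 at 0.01, 112 with all probe sets singly and 148 to 323 without single arrays. Between the knockouts the count was 1, and 0 without moderation (unadjusted, 961 genes were under 0.05), 4 among brighter genes, 2 with median centring, 4 with cyclic loess, 2 with trend and robust, 6 with array weights, 2 with all probe sets singly, 2 without Mdr2-KO arrays 2 and 3, and 1 to 5 without single arrays. In Mdr2-KO/IL6-KO against WT it was 836, and 496 without moderation, 1341 with array weights, 342 at 0.01, 488 with all probe sets singly and 464 to 989 without single arrays. The causes were not tested. No paired analysis was possible because the labels give no shared replicate numbers. With 3 or 4 arrays a group and no detection calls used here, a missed call for Ambp or Itih1 does not show equal levels.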

Other observations

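The genes most like Itih1 and Itih2 differed from those of Itih3 and Itih4. For Itih1 the 3 most alike were Idi1 (r = 0.928 over 11 arrays), Lss (0.925) and Sqle (0.924), all enzymes of cholesterol synthesis, and r after subtracting group means was 0.79, 0.81 and 0.79. These enzymes were lower in Mdr2-KO/IL6-KO against WT, Sqle by a log2 difference of -1.21 (limma adjusted p = 0.00999), Idi1 by -0.80 (limma adjusted p = 0.00261) and Lss by -0.75 (limma adjusted p = 0.0214), where Itih1 was at -0.24. For Itih2 they were Dctpp1 (0.901), Stxbp2 (0.891) and Npat (0.884), none of which was called in any comparison. These were read from the same 11 arrays and are descriptions.

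Of 30 other acute-phase genes 22 have a promoter in the RefSeq table, 23 windows in all. The C/EBP-like letters are in 14 of these windows (60.9%), against 10.8% of all promoters. The STAT letters are in 4 (17.4%, Apcs, Fga, Fgb and Hamp), against 8.30%. All promoters were not matched to this list for base composition or expression in liver, so the shares are a description.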
